A study of Mus musculus with 6 samples.

Results

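The genes described here are 37 genes of fatty acid oxidation and the peroxisome, chosen by symbol from a table of 17890 genes, and all 37 were found and had enough reads to be tested. The samples were mast cells of mouse lymph nodes, with 3 libraries from nodes holding tumour metastases (mLN) and 3 from uninvolved nodes (uLN). No treatment, genotype or strain is named for either group, and neither the tumour, the age of the mice nor the way the mast cells were isolated is stated there. Nothing in the labels says that the 3 libraries of a group came from separate animals, so a p-value here is about the scatter among 3 libraries a group, part or all of which may be technical. In bulk RNA such as this, fewer cells of a type and less RNA per cell cannot be told apart.

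Fatty acids are burned in mitochondria after the carnitine shuttle has carried them in, and each turn of the beta-oxidation cycle runs through a dehydrogenase, a hydratase, a second dehydrogenase and a thiolase. Electrons from the acyl-CoA dehydrogenases pass through the electron transfer flavoprotein to the respiratory chain. Peroxisomes shorten very long and branched chains in a related cycle that makes hydrogen peroxide, which catalase destroys, and their enzymes are imported and their membranes built by the peroxins. Mast cells draw on lipid for their eicosanoid mediators and on mitochondrial respiration during activation.

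The libraries held between 17643916 and 17799420 estimated counts. Levels are given in CPM, counts scaled to a common library size after TMM scaling. Changes come from the quasi-likelihood test of edgeR, with p-values adjusted by Benjamini-Hochberg over all tested genes and a call at an adjusted p under 0.05. The 7 mast cell markers examined summed to 23458 to 25559 CPM in mLN and 29852 to 31217 CPM in uLN, with 2 of the 7 called higher and 5 called lower. Among 7 macrophage markers, summed to 151 to 172 CPM in mLN and 56.3 to 76.9 CPM in uLN, 2 rose and 4 fell, with C1qa too low to test. The adipocyte markers found, Adipoq and Plin1, summed to at most 0.115 CPM in any library. The B cell, T cell and neutrophil markers found summed to at most 0.492, 0.602 and 0.222 CPM in any library, too low to test. Melanocyte markers summed to 6.95 to 12.8 CPM in mLN and 5.44 to 6.6 CPM in uLN, with 1 of 2 tested called higher. Keratinocyte markers reached 154 CPM in mLN replicate 1, against 15 and 33.6 CPM in the other mLN libraries and 5.86 to 14.7 CPM in uLN. Fibroblast markers summed to 108 CPM in mLN replicate 1, against 12.1 and 24.6 CPM in the other mLN libraries and 3.62 to 12.6 CPM in uLN. All 3 tested keratinocyte markers and all 3 tested fibroblast markers were called higher in mLN. The part of other cells in the changes below was not tested. By the median chi-square per gene, mLN replicate 3 stood apart from mLN replicates 1 and 2 (2.58 and 2.48, against 0.736 between those replicates). Between the uLN libraries it was 0.655 to 0.701.

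Of the 37 genes, 11 were higher in mLN, 11 were lower and 15 were not called. Calls thus made up 59.5% of these genes, while 67.4% of all 12706 tested genes were called, 33.2% as higher and 34.2% as lower, so the share called was near the background. The median log2 fold change was -0.08 over the 37 genes and -0.01 over all tested genes. Of the changes called, 5 rises and 2 falls reached 1.5-fold, where 17.1% and 15.3% of all tested genes did so. The groups did not overlap for 24 of the 37 genes, or 64.9%, beside 72.9% of all tested genes. An alternative fit in edgeR set the coefficient of variation to 0.2, in place of the estimated 0.0649, and used the likelihood ratio test. It kept 7 of the 22 calls, those of Crat, Acadl, Hadh, Acaa2, Decr1, Pex13 and Pex11a. The genes changed in both directions, and 4 of the 10 roles they were sorted into held both rises and falls. The division role, with 1 gene, could not do so. Each of the further lists described below also held both, so the mixture is not particular to these genes.

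**Figure D1:**
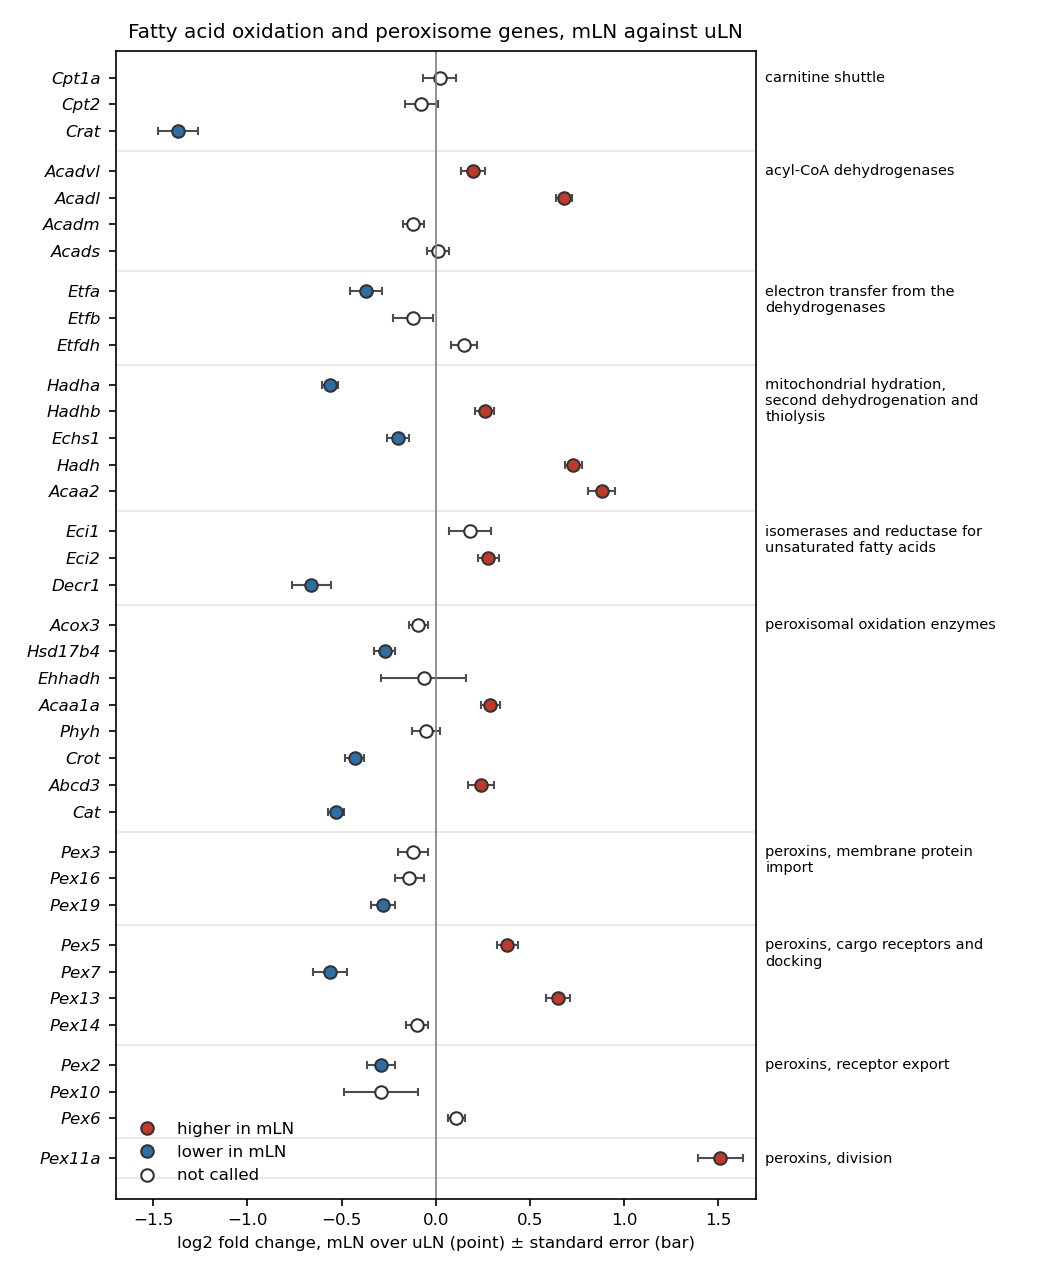
Log2 fold change of each of the 37 genes, mLN over uLN, with its standard error as a bar, grouped by role down the page. Filled points passed the edgeR test and open points did not. Pex11a lies farthest to the right, at 1.51, and Crat farthest to the left, at -1.37.

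In the carnitine shuttle, the enzyme of short acyl groups fell while both palmitoyltransferases missed the threshold. Crat encodes carnitine acetyltransferase, which buffers acetyl groups in mitochondria and peroxisomes. It measured 29.4, 29.3 and 20.9 CPM in mLN and 70.2, 66.5 and 69.9 CPM in uLN. Every mLN library was below every uLN library, with a 2.59-fold fall (log2 change of -1.37 ± 0.107 SE, adjusted p = 1.54e-06). Crat (gene ID 12908) spans chromosome 2 positions 30400476 to 30416017 in GRCm38, and 470 of its exon bases are shared with genes on the opposite strand. Such overlap, at 700 bases for Acox3, 290 for Acaa1a, 278 for Etfdh and 249 for Pex3, leaves their reads uncertain if the counting ignored strand.

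Cpt1a, the rate-limiting enzyme that loads long-chain fatty acids onto carnitine at the outer mitochondrial membrane, measured 142, 150 and 112 CPM in mLN and 133, 131 and 134 CPM in uLN. The log2 change was 0.021 ± 0.0886 SE (adjusted p = 0.844). The mLN libraries lay on both sides of the uLN values, with replicates 1 and 2 above them and replicate 3 below. Without mLN replicate 3, Cpt1a was called higher, with a log2 change of 0.14 (adjusted p = 0.00246, in a range from 0.00246 to 0.982 over the alternatives). Cpt2, which transfers the acyl group back to CoA at the inner membrane, measured 17.1, 15.9 and 14 CPM in mLN and 16.3, 16.9 and 16.5 CPM in uLN, with overlapping groups and a log2 change of -0.078 ± 0.0873 SE (adjusted p = 0.451). Outside the 37 genes, Slc25a20, the carnitine-acylcarnitine carrier, fell 1.25-fold (adjusted p = 0.026), a call lost without each uLN library (adjusted p from 0.0557 to 0.0738) and with library totals alone (0.0551). The alternative palmitoyltransferases Cpt1b and Cpt1c were picked after their values were seen. Cpt1c, the brain-type form, rose 2.12-fold, and Cpt1b had a log2 change of -0.09 and was not called.

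The acyl-CoA dehydrogenases take the first pair of hydrogens and differ in the chain length they prefer. Among them, the long-chain and very-long-chain enzymes rose and the medium-chain and short-chain enzymes were not called. A difference by chain length was not tested. Acadl, the long-chain enzyme, measured 142, 145 and 146 CPM in mLN and 91.6, 90.9 and 88.9 CPM in uLN. Its rise of 1.6-fold (log2 change of 0.68 ± 0.043 SE, adjusted p = 3.69e-07) was far outside the spread of either group. Acadl (gene ID 11363) spans chromosome 1 positions 66830839 to 66863309. Acadvl, the very-long-chain enzyme, averaged 52.8 ± 3.02 CPM in mLN and 45.9 ± 2.43 CPM in uLN (SD, n = 3 each), a rise of 1.15-fold. That call was lost without mLN replicate 2 (adjusted p = 0.0723) and without uLN replicate 3 (adjusted p = 0.0981), in a range from 0.0016 to 0.565 over the alternatives. Acadvl also shares 1151 exon bases with Dvl2 on the opposite strand, and the strand setting of the counting is not stated. The medium-chain Acadm averaged 64.3 ± 1.87 CPM in mLN and 69.9 ± 3.91 CPM in uLN, and the short-chain Acads 34.5 ± 1.45 CPM in mLN and 34.2 ± 0.428 CPM in uLN (SD, n = 3 each).

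The genes that carry electrons away from these dehydrogenases showed 1 fall and no rise. Etfa, the alpha subunit of the electron transfer flavoprotein, measured 17.1, 17.5 and 14.3 CPM in mLN and 21.0, 20.8 and 21.5 CPM in uLN, a fall of 1.29-fold with no overlap (log2 change of -0.37 ± 0.0861 SE, adjusted p = 0.00317). Its partner Etfb, the beta subunit, measured 23.7, 25.8 and 19.3 CPM in mLN and 24.8, 26.8 and 23.0 CPM in uLN, with overlapping groups. Etfdh, the flavoprotein dehydrogenase that hands the electrons to ubiquinone, averaged 32.0 ± 1.86 CPM in mLN and 28.9 ± 1.56 CPM in uLN (SD, n = 3 each) and missed the threshold (adjusted p = 0.0848). Etfb shares exon bases on its own strand with the gene model Gm45233, so its counts may be split between both.

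All 5 genes of the later mitochondrial steps were called, 3 up and 2 down. Hadh, the 3-hydroxyacyl-CoA dehydrogenase of medium and short chains, measured 111, 112 and 111 CPM in mLN and 65.7, 66.6 and 68.4 CPM in uLN. It rose 1.66-fold (log2 change of 0.73 ± 0.0444 SE, adjusted p = 2.58e-07). Acaa2, the mitochondrial thiolase that cleaves off acetyl-CoA, measured 22.9, 23.4 and 23.1 CPM in mLN and 13.0, 13.0 and 11.7 CPM in uLN. Its 1.84-fold rise (log2 change of 0.88 ± 0.0739 SE, adjusted p = 2.58e-06) was the second largest of the 37 genes, with no overlap between groups. Echs1, the short-chain enoyl-CoA hydratase, averaged 30.4 ± 0.310 CPM in mLN and 34.9 ± 1.53 CPM in uLN (SD, n = 3 each). This fall of 1.15-fold was no longer called without uLN replicate 2 (adjusted p = 0.0673) or in DESeq2 (adjusted p = 0.0688), in a range from 0.0115 to 0.578 over the alternatives.

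The remaining members of this step, Hadha and Hadhb, encode the alpha and beta subunits of the mitochondrial trifunctional protein, which performs the last steps of the cycle on long chains, and they changed in opposite directions. Hadha, with the hydratase and dehydrogenase activities, measured 76.9, 76.6 and 78.2 CPM in mLN and 113, 113 and 115 CPM in uLN. It fell 1.47-fold (log2 change of -0.56 ± 0.0431 SE, adjusted p = 1.41e-06). Hadhb, with the thiolase activity, measured 76.5, 77.2 and 82.6 CPM in mLN and 66.4, 64.6 and 65.7 CPM in uLN, a rise of 1.2-fold (log2 change of 0.26 ± 0.05 SE, adjusted p = 0.000806). For each gene the groups were apart, and both calls were kept without each library.

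Hadha and Hadhb lie head to head on chromosome 5, Hadha from 30119423 to 30154980 on the minus strand and Hadhb from 30155253 to 30184593 on the plus strand in GRCm38. Only 272 bases separate their annotated starts in RefSeq, at chr5:30154981-30155252. This interval is shown because both subunits are transcribed outward from it while their transcripts moved apart. It is written on the plus strand, in the direction of Hadhb, with 60.3% G and C. It is all in lower case, since it holds neither of the motifs searched for further on.
Hadha-Hadhb interval: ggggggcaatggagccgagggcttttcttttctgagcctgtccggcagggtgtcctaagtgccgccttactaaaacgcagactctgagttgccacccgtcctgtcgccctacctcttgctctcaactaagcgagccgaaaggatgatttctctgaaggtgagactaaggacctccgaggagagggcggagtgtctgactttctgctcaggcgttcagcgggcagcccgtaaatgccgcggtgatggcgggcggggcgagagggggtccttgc

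The count of Hadhb over that of Hadha within a library does not depend on the scaling between libraries. It was 0.994, 1.01 and 1.06 in mLN and 0.589, 0.569 and 0.572 in uLN, 1.77-fold higher in mLN. Every mLN ratio exceeded every uLN ratio. The exact two-sided permutation p of 0.1 is the smallest that 3 libraries against 3 can give. Because Hadhb rose and Hadha fell without overlap, that order and that p were fixed beforehand and add no support to the calls. This ratio and that of Pex5 to Pex7 were picked after their values were seen, and adjusted over both the p is also 0.1. The Hadhb counts were not all whole numbers, and Hadha overlaps Garem2 on the opposite strand by 75 exon bases.

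**Figure D2:**
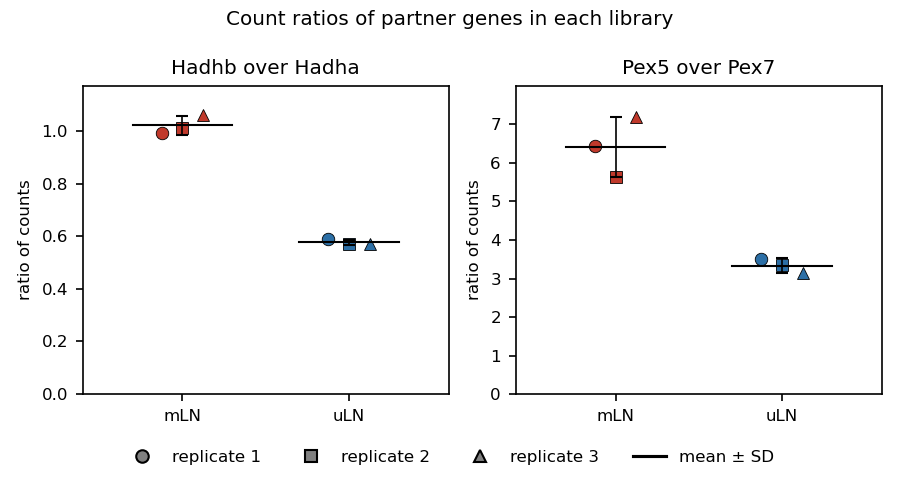
Ratio of counts between partner genes in each library, on linear axes from 0, with mLN left of uLN, each point a library, the line the mean and the bar its SD. Hadhb over Hadha averaged 1.02 in mLN and 0.577 in uLN, and Pex5 over Pex7 averaged 6.42 in mLN and 3.33 in uLN.

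The auxiliary enzymes for unsaturated fatty acids split as well. Decr1, the mitochondrial dienoyl-CoA reductase needed for polyunsaturated chains, measured 32.9, 32.9 and 24.3 CPM in mLN and 46.1, 47.3 and 48.9 CPM in uLN. It fell 1.58-fold (log2 change of -0.66 ± 0.102 SE, adjusted p = 0.000213), with mLN replicate 3 well below the other mLN libraries and all of mLN below uLN. Decr1 (gene ID 67460) spans chromosome 4 positions 15917240 to 15945377. Eci2, an enoyl-CoA isomerase found in both organelles, rose 1.21-fold, with means of 40.1 ± 1.46 CPM in mLN and 33.1 ± 0.631 CPM in uLN (SD, n = 3 each). Eci1, the mitochondrial isomerase, was not called, at 12.2 ± 1.36 CPM in mLN and 10.8 ± 1.01 CPM in uLN (SD, n = 3 each).

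Of 8 genes of peroxisomal oxidation 2 rose and 3 fell, none by 1.5-fold. Cat, which encodes catalase and was the most abundant of the 37 genes, measured 611, 612 and 635 CPM in mLN and 870, 899 and 918 CPM in uLN. This fall of 1.45-fold (log2 change of -0.53 ± 0.0411 SE, adjusted p = 1.41e-06) held in every library, since the highest mLN value was below the lowest uLN value. Cat (gene ID 12359) spans chromosome 2 positions 103453904 to 103485153. Crot, which attaches the shortened chains to carnitine for export to mitochondria, measured 66.6, 71.1 and 67.0 CPM in mLN and 93.1, 88.5 and 93.9 CPM in uLN, a fall of 1.35-fold (adjusted p = 2.88e-05). Both carnitine acyltransferases for short and medium chains, Crat and Crot, were therefore lower in mLN, and Cpt1a and Cpt2 were not called. A difference between these pairs was not tested.

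Hsd17b4, the bifunctional enzyme that hydrates and dehydrogenates branched and very long chains, averaged 81.9 ± 3.76 CPM in mLN and 98.6 ± 5.02 CPM in uLN (SD, n = 3 each), 1.2-fold lower. Acaa1a, the peroxisomal thiolase, averaged 59.1 ± 1.22 CPM in mLN and 48.3 ± 1.39 CPM in uLN (SD, n = 3 each), 1.22-fold higher. Its close copy Acaa1b had 0, 0 and 1.31 estimated counts in mLN and 1.88, 0 and 0 in uLN, so few reads were assigned to that copy. Eci3, the close copy of Eci2, was also low, with 10.31 to 18.65 estimated counts in mLN and 3.36 to 13.41 in uLN. Abcd3, a transporter that brings acyl-CoA into peroxisomes, averaged 23.8 ± 0.792 CPM in mLN and 20.1 ± 1.13 CPM in uLN (SD, n = 3 each), 1.18-fold higher. Without uLN replicate 1 its adjusted p was 0.0537, in a range from 0.00601 to 0.48 over the alternatives.

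Acox3, an oxidase for branched chains, Phyh, which starts the alpha-oxidation of phytanic acid, and Ehhadh, the other bifunctional enzyme, were not called. Acox3 averaged 87.2 ± 3.26 CPM in mLN and 93.0 ± 2.67 CPM in uLN, and Phyh 25.8 ± 1.74 CPM in mLN and 26.7 ± 1.43 CPM in uLN (SD, n = 3 each). Ehhadh was scarce, at 3.06, 2.56 and 1.89 CPM in mLN and 2.64, 2.48 and 2.76 CPM in uLN, and its standard error of 0.224 on the log2 scale leaves a change of modest size undetectable at this depth.

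**Figure D3:**
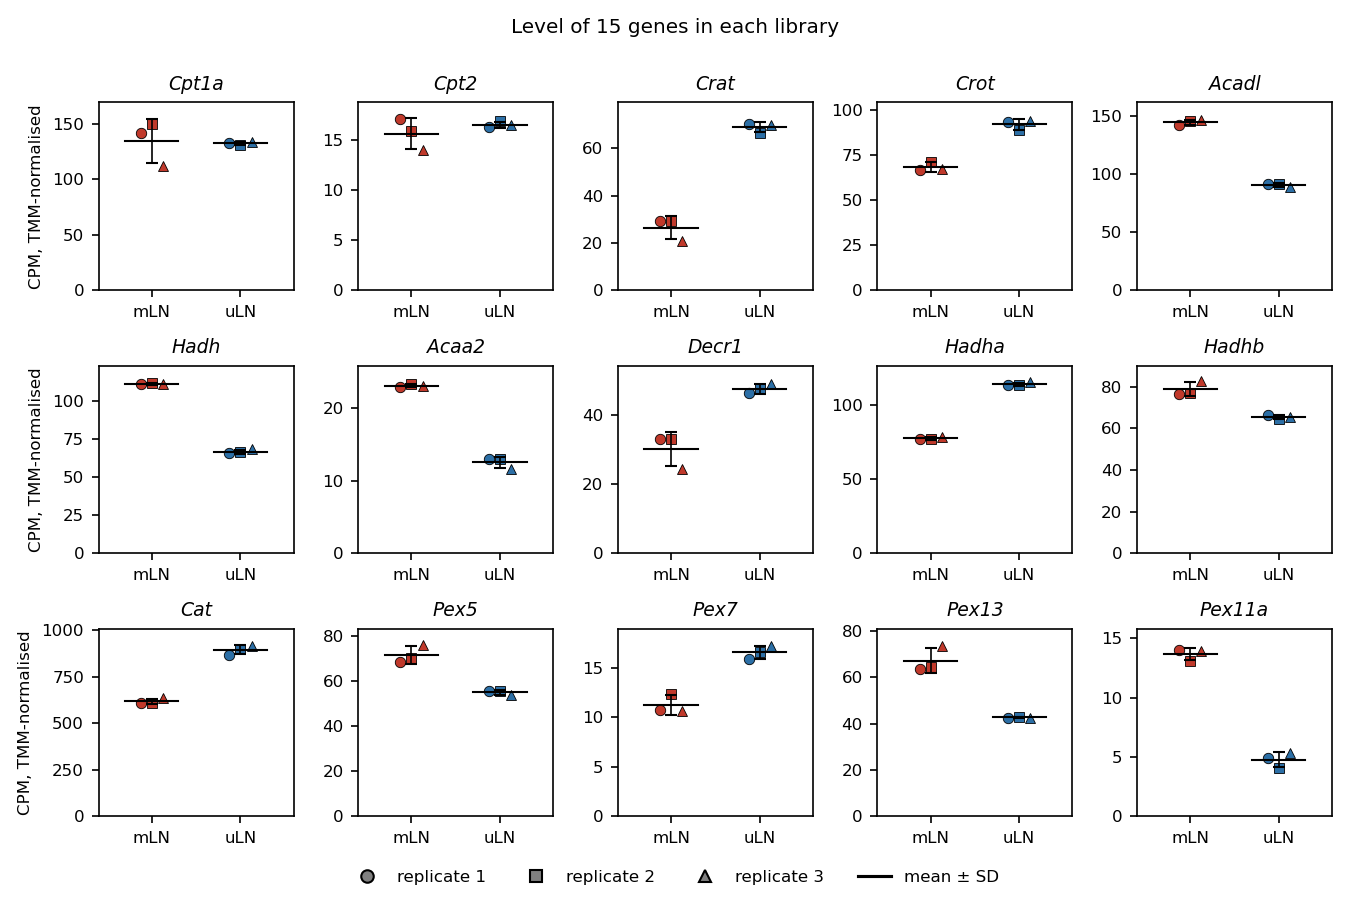
TMM-normalised CPM of 15 genes in each library, on linear axes from 0, with mLN left of uLN, a symbol for each replicate, the line for the mean and the bar for its SD. Acadl, Hadh, Acaa2, Hadhb, Pex5, Pex13 and Pex11a lie higher in mLN in every library, Crat, Crot, Decr1, Hadha, Cat and Pex7 lie lower, and Cpt1a and Cpt2 overlap.

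Of the 11 peroxins 3 rose, 3 fell and 5 were not called. Pex11a, which elongates the peroxisomal membrane ahead of division, measured 14, 13.1 and 13.9 CPM in mLN and 4.93, 4.06 and 5.34 CPM in uLN. Its 2.86-fold rise (log2 change of 1.51 ± 0.12 SE, adjusted p = 1.69e-06) was the largest change among the 37 genes in either direction. The lowest mLN library was above the highest uLN library. Pex11a (gene ID 18631) spans chromosome 7 positions 79735957 to 79743131 on the minus strand. Of the fission factors shared with mitochondria, Fis1 and Mff fell 1.62-fold and 1.25-fold. The 250 bases before the RefSeq start of Pex11a, at chr7:79743132-79743381 on the minus strand of GRCm38, are shown because no member changed more, and they too hold neither motif.
Pex11a upstream: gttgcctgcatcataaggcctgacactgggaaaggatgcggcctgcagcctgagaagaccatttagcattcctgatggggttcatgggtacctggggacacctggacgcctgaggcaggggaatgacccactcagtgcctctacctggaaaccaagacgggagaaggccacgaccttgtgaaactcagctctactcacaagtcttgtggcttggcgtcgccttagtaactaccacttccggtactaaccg

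The receptors that bring matrix enzymes to the peroxisome diverged. Pex5 binds the C-terminal targeting signal carried by most matrix enzymes and Pex7 binds the N-terminal signal of a few, among them the peroxisomal thiolase and phytanoyl-CoA hydroxylase. Pex5 measured 68.6, 70.2 and 76.0 CPM in mLN and 55.6, 55.6 and 53.7 CPM in uLN, a rise of 1.30-fold (log2 change of 0.38 ± 0.0548 SE, adjusted p = 0.000121). Pex7 measured 10.7, 12.4 and 10.6 CPM in mLN and 15.9, 16.6 and 17.2 CPM in uLN, a fall of 1.47-fold (log2 change of -0.56 ± 0.0907 SE, adjusted p = 0.000289). Neither pair of groups overlapped. The count of Pex5 over that of Pex7 was 6.43, 5.64 and 7.2 in mLN and 3.51, 3.35 and 3.13 in uLN, 1.92-fold higher in mLN. The exact permutation p was again the smallest possible, 0.1. With Pex5 higher and Pex7 lower without overlap, this p was fixed beforehand and adds no support.

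At the docking complex, Pex13, which receives the loaded receptors, measured 63.7, 64.2 and 73.4 CPM in mLN and 42.5, 43.0 and 42.5 CPM in uLN. It rose 1.57-fold with no overlap (log2 change of 0.65 ± 0.064 SE, adjusted p = 7.86e-06). Pex13 (gene ID 72129) spans chromosome 11 positions 23646843 to 23665883. Its docking partner Pex14 averaged 28.8 ± 0.266 CPM in mLN and 30.9 ± 0.392 CPM in uLN (SD, n = 3 each) and was not called (adjusted p = 0.145). Pex14 shares 1776 exon bases with the antisense gene model Gm17029.

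Of the genes that recycle the receptors, Pex2, a membrane ubiquitin ligase subunit, fell 1.22-fold, to 22.6 ± 1.74 CPM in mLN against 27.6 ± 0.477 CPM in uLN (SD, n = 3 each). Its partner Pex10 was too scarce for a close estimate, at 4.38, 3.06 and 3.21 CPM in mLN and 4.01, 3.95 and 5.11 CPM in uLN. Pex6, an ATPase that pulls the receptor out of the membrane, averaged 82.8 ± 2.02 CPM in mLN and 76.7 ± 1.09 CPM in uLN (SD, n = 3 each), with an adjusted p = 0.0529. The gene of its membrane anchor, Pex26, which is outside the 37, rose 1.73-fold. Of the genes that insert membrane proteins, Pex19, the soluble chaperone, fell 1.22-fold, to 45.3 ± 2.81 CPM in mLN against 55.1 ± 2.94 CPM in uLN (SD, n = 3 each). Its membrane partners were not called: Pex3 averaged 19.7 ± 1.48 CPM in mLN and 21.4 ± 1.07 CPM in uLN, and Pex16 20.4 ± 1.35 CPM in mLN and 22.5 ± 0.972 CPM in uLN (SD, n = 3 each).

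Levels can be compared between genes only per length, here as CPM per kilobase of the longest principal transcript in GENCODE M21. Cat led in every library, with a mean of 237 CPM per kilobase in mLN and 343 CPM per kilobase in uLN. Acadl followed with 75.4 in mLN and 47.2 in uLN, and Hadh with 62.2 in mLN and 37.4 in uLN, on the same scale. In uLN the libraries of Hadh overlapped those of Hsd17b4, at 36.7 to 38.2 against 34.6 to 37.9 CPM per kilobase. Below these, many neighbours in the order did not differ beyond their spread, as with Acadm, Cpt1a and Hsd17b4 in mLN, at means of 31.4, 31.2 and 30.5 CPM per kilobase with overlapping libraries. Cpt1a stood above Cpt2 in every library, at 31.2 against 6.61 CPM per kilobase in mLN and 30.8 against 6.98 in uLN. Hadhb exceeded Hadha per length in both groups, at 38.4 against 19.2 CPM per kilobase in mLN and 32.0 against 28.3 in uLN. This order rests on annotated lengths of 4017 bases for Hadha and 2048 for Hadhb, and shorter forms of Hadha would raise its value. Acaa2 took place 22 of 37 in mLN, against 31 in uLN, and Crat place 33 in mLN, against 21 in uLN. Ehhadh was last, at 0.841 CPM per kilobase in mLN and 0.88 in uLN, and Pex7 second to last by its mean, overlapping Pex11a in uLN, although its long annotated transcript of 8099 bases lowers its value if shorter forms are used.

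**Figure D4:**
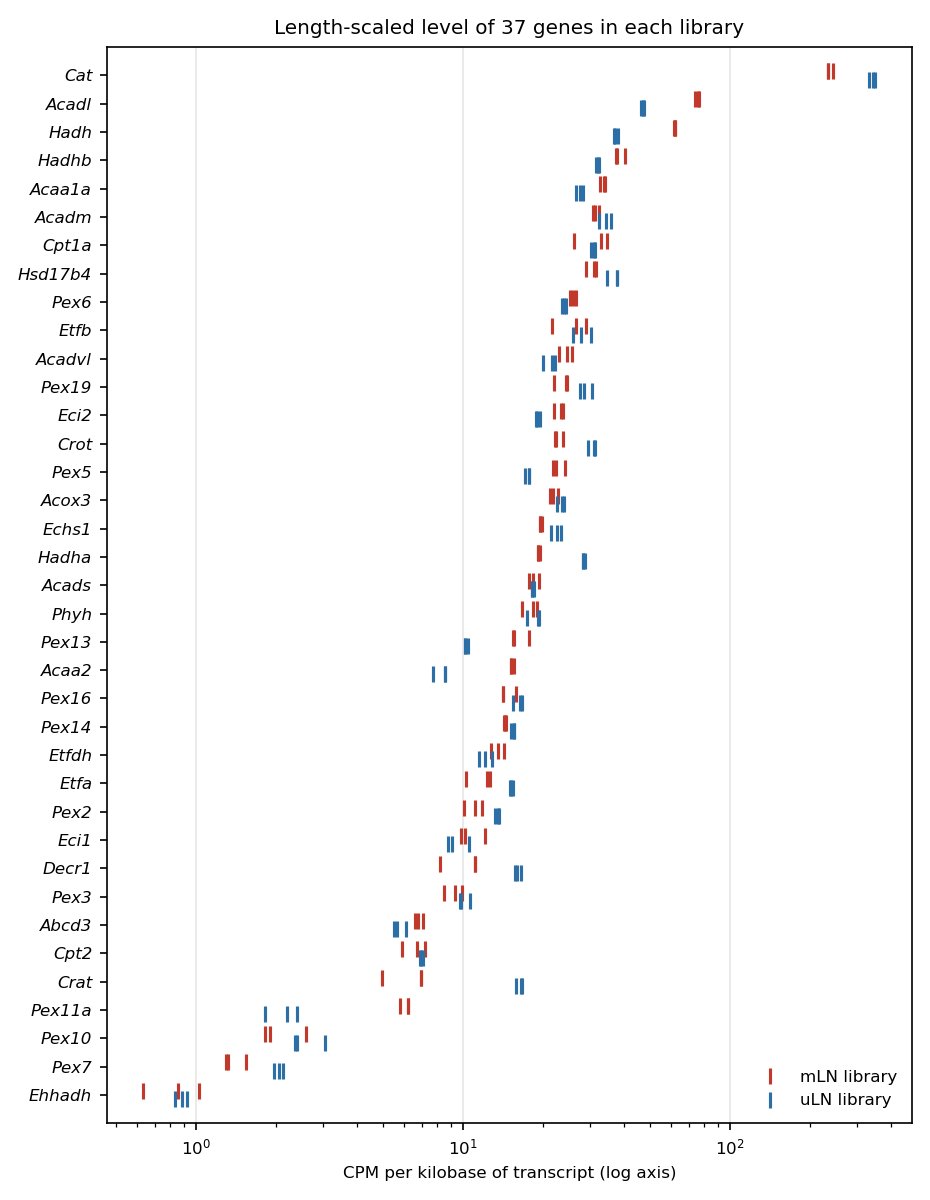
CPM per kilobase of transcript on a log axis for the 37 genes, ordered by their mLN mean from top to bottom, with a tick for each library and mLN drawn above uLN. Cat stands apart at the top, with Acadl and Hadh next and Ehhadh at the bottom.

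Within mLN, replicate 3 gave lower values for several of the 37 genes. It was the lowest mLN library for 19 of them, or 51.4%, beside 42.1% of all tested genes. It was the highest for 9, or 24.3%, beside 39.4% of all tested genes. It lay at least 1.25-fold below the mean of mLN replicates 1 and 2 for 5 genes, or 13.5%, beside 14.5% of all tested genes, and at least 1.25-fold above it for 0, beside 6.45%. The 5 were Crat, Decr1, Cpt1a, Etfb and Ehhadh, at log2 ratios of -0.49, -0.43, -0.38, -0.36 and -0.57. Without mLN replicate 3, Crat and Decr1 were still called lower, with log2 changes of -1.224 and -0.524. Acadm, Etfdh, Acox3 and Pex6 joined Cpt1a as calls without that library. Without mLN replicate 1, the library with the most keratinocyte and fibroblast transcripts, no call among the 37 genes changed. That fit does not test the part of other cells. The remaining mLN replicate 3, at 33.6 and 24.6 CPM of these markers, was also above every uLN library, at most 14.7 and 12.6 CPM.

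**Figure D5:**
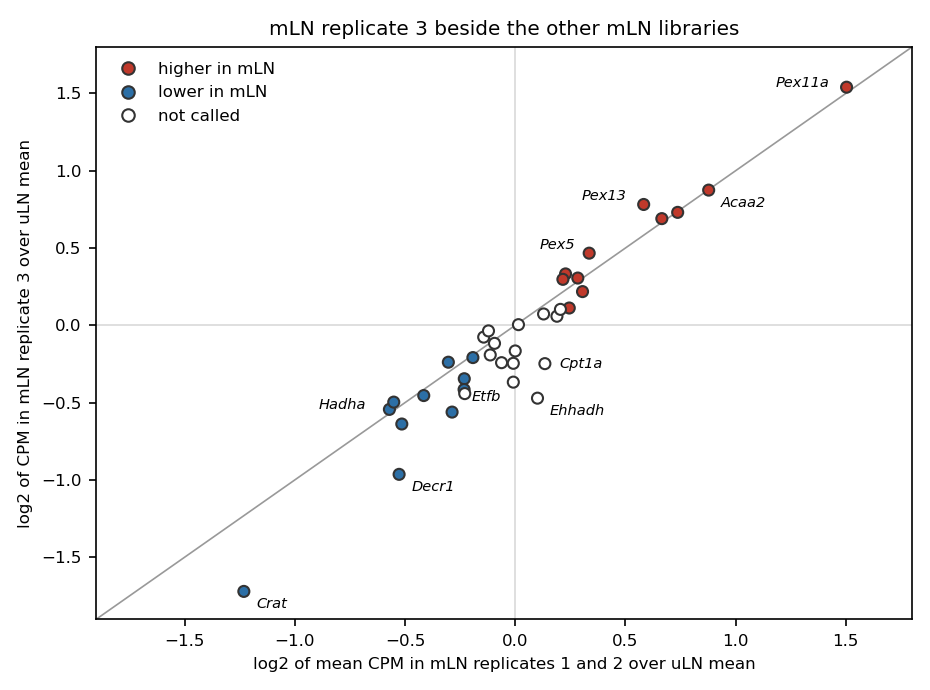
Each of the 37 genes as log2 of its CPM over the uLN mean, with mLN replicate 3 on the vertical axis and the mean of mLN replicates 1 and 2 on the horizontal axis. The line marks equal values, and Crat, Decr1, Cpt1a and Ehhadh lie farthest below it.

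Promoters were searched for the half-site of nuclear receptors such as the PPARs (AGGTCA), for a pair of these half-sites in tandem with 1 base between them, and for the E-box CACGTG, on both strands of the 250 bases before each start in the RefSeq promoter table. A window was found for 31 of the 37 genes. At least 1 half-site stood before 5 of them, or 16.1%, where 14% of all 32851 windows held one. The shares count unlike units, since a gene with several windows was counted once if any of them held the site. The tandem pair was found before 0 of the genes and in 0.0335% of all windows, and the E-box before 0 of the genes and in 6.02% of all windows. The sites are shown with up to 12 bases on either side because they stand before genes that fell (Cat, Echs1), rose (Acadvl) and were not called (Acadm, Cpt1a). Each is read on the strand of its gene in GRCm38, with the half-site or its reverse complement in capitals.
Cat: tgtgactctcagAGGTCAgagaacaccagc
Echs1: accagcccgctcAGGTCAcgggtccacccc
Acadvl: atggatcaccctAGGTCAggtagaatacag
Acadm: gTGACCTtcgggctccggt
Cpt1a: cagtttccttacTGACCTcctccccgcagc

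These windows lie at chr2:103485340-103485369 for Cat, chr7:140116487-140116516 for Echs1, chr11:70015498-70015527 for Acadvl and chr3:153944875-153944893 for Acadm, all on the minus strand, and at chr19:3323195-3323224 on the plus strand for Cpt1a. The half-sites begin 204, 83, 87, 249 and 94 bases before the starts of Cat, Echs1, Acadvl, Acadm and Cpt1a. For Cpt1a the promoter table's only window precedes a downstream start, so its half-site lies inside the annotated gene, which begins at position 3322326. A match is a run of letters and does not show that a factor binds there.

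Other genes of these pathways were taken from lists. Of 28 tested further genes of fatty acid uptake and oxidation 11 rose and 14 fell, which is 89.3% called. Cd36, a fatty acid transporter of the plasma membrane, fell 4.34-fold, to 6.57 ± 0.735 CPM in mLN against 28.5 ± 5.12 CPM in uLN (SD, n = 3 each). Acsl5, which activates long-chain fatty acids with CoA, fell 1.99-fold, Acad12, a dehydrogenase related to those above, fell 2.46-fold, and Oxct1, which lets cells use ketone bodies, fell 1.33-fold. Of 33 tested further peroxisomal enzymes and transporters 10 rose and 10 fell. Prdx5, a peroxiredoxin found partly in peroxisomes, rose 1.72-fold, and Scp2, which includes a sterol carrier and thiolase, and Far2, which makes fatty alcohols, fell 1.32-fold and 1.53-fold. Pxmp2, a peroxisomal membrane channel, was higher in mLN at 3.23, 3.39 and 3.61 CPM than in uLN at 0.745, 0.282 and 0.459 CPM. Of 13 further peroxins and division factors 5 rose and 4 fell, including Zfand6, which rose 1.47-fold.

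Among 25 tested regulators 13 rose and 9 fell. Prkag1 and Prkab1, subunits of AMP-activated kinase named here for their low adjusted p, fell 1.79-fold and 1.48-fold. The other subunits of that kinase are not reported here, so these falls do not describe the kinase as a whole. Rxra, the partner of the PPARs on DNA, measured 39.0, 41.0 and 29.8 CPM in mLN and 88.5, 89.3 and 86.6 CPM in uLN, a fall of 2.40-fold. Mitf, a transcription factor of mast cells and melanocytes related to the lysosomal factors Tfeb and Tfe3, fell 1.5-fold. Of the genes picked from that list after their values were seen, Ppara had 1, 0 and 0 reads in mLN and 1, 2 and 0 in uLN, too few for a fold. Ppard rose 1.54-fold, to 62.2 ± 2.61 CPM in mLN against 40.3 ± 1.54 CPM in uLN, and Rxrb rose 1.54-fold as well. Pparg was scarce and fell 2.73-fold (adjusted p = 0.0139), to 0.314 ± 0.204 CPM in mLN against 0.874 ± 0.123 CPM in uLN (SD, n = 3 each). Ppargc1a, a coactivator of oxidative genes, rose 3.47-fold, to 3.38 ± 1.04 CPM in mLN against 0.969 ± 0.162 CPM in uLN (SD, n = 3 each).

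Of 6 tested PPAR targets outside the 37 genes 1 rose and 3 fell. Ucp2, a mitochondrial carrier, fell 2.88-fold, to 244 ± 23.9 CPM in mLN against 702 ± 35.1 CPM in uLN (SD, n = 3 each), Plin2, a lipid droplet coat protein, fell 1.57-fold, and Cyp4a12a, a fatty acid hydroxylase, rose 3.65-fold. Of 14 tested genes of lipid droplets and lipolysis 4 rose and 4 fell. Lipa, the lysosomal acid lipase, and Plin3, another droplet coat protein, rose 2.07-fold and 1.81-fold, and Bscl2, which encodes seipin, fell 2-fold. Of 20 genes of the respiratory chain, the ATP synthase and coenzyme Q synthesis, 4 rose and 9 fell. The complex I genes Ndufv1 and Ndufa9 fell 1.52-fold and 1.6-fold, and Atp5b of the ATP synthase fell 1.24-fold. Except for Slc25a20, the genes named from these lists by order of adjusted p had values of 0.000369 or less in edgeR. The share called in these lists lay between 57.1% and 89.3%, around the 67.4% of all tested genes.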

How the data were processed

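Total RNA was made into mRNA libraries with a DNBSEQ kit, per the labels' protocols. Per the submitters' processing notes, cutadapt, FastQC, TopHat and the mouse build GRCm38 were used. No counting tool or strand setting is stated. Expected counts per gene came as 1 table that the authors deposited, in which 32.2% to 32.8% of a library's values are not whole (9 of the 37 genes have such values). Estimated counts were rounded. Of 17891 rows, 1 named no gene and was left out.

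The comparison used edgeR 4.0.16 in R 4.3.3 with TMM, the default expression filter (12706 genes kept, 5184 removed) and the quasi-likelihood test, and the SE is the log2 change over the square root of F. The median log2 change over all tested genes was -0.006 in the main fit and 0.006 to 0.021 under other scalings. The members and lists were chosen with earlier results of these data known, and no set test was run. All 37 genes are reported, with full statistics for calls of at least 1.5-fold and for Cpt1a, Cpt2, Cat, Pex5 and Pex7; of each further list, up to 4 called genes in order of adjusted p are named. Some genes are not reported here. Targeting signals in proteins were not searched, since no protein table was used here. Positions and promoters are from RefSeq GRCm38.p6, and lengths are those of principal transcripts in GENCODE M21, used in place of the planned exon length. Count ratios were compared by an exact permutation test (SciPy 1.17.1), and DESeq2 1.42.0 was an alternative. Data simulated for mLN against uLN over 12706 genes held only 50 changed genes for each size of change. Of the genes given a 1.25-fold change edgeR found 40%, and of those given 1.5-fold it found 72%. It found 78% of the genes given 2-fold and 96% of those given 4-fold, while 12 of its 155 calls were false. The adjusted p depends on the share of genes that change, and 67.4% were called in the real comparison. These rates therefore cannot be read as the share of real changes found here. The labels do not say whether replicate numbers pair the libraries, and the main fit used no block.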

Additional observations from a re-analysis of the deposited data

How the results depend on the processing

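In all, 14 alternatives were run. Of the 22 calls among the 37 genes, 19 kept their direction and call without each library and under each other scaling, DESeq2, no filter, unrounded counts and the replicate block; the others are Acadvl, Echs1 and Abcd3. With the replicate block, 0 calls among the 37 genes changed. Deviations of same-numbered libraries correlated at 0.0248, -0.155 and -0.0133, and those of differently numbered libraries at -0.16 to 0.185. These values cannot tell whether the numbers pair the libraries. The block gave 8385 calls over all genes. With a fixed coefficient of variation of 0.2, only Crat, Acadl, Hadh, Acaa2, Decr1, Pex13 and Pex11a were called, 5 higher and 2 lower. Over all genes 2145 were then higher and 1913 lower, against 4219 and 4347. On the further lists the higher and lower calls were then 6 and 7 for fatty acid oxidation, 4 and 3 for peroxisomal enzymes, 1 and 2 for peroxins, 4 and 5 for regulators, 2 and 2 for lipid droplets, and 1 and 3 for the respiratory chain. That setting assumes a wider spread than the 0.0649 estimated and uses the likelihood ratio test, and 15 of the 22 calls were lost. Leaving out a library gave 10 to 14 higher and 11 to 13 lower calls among the 37 genes, and 1 to 2 higher PPAR targets.

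Uncalled genes near 0 changed sign, and the cause was not tested. Over the fits that left out 1 library, Cpt1a ran from -0.062 to 0.14, Cpt2 from -0.146 to 0.00033, Acads from -0.02 to 0.038, Ehhadh from -0.235 to 0.104 and Phyh from -0.102 to 0.004. The sign changes were in Cpt1a (log2 change of -0.0056 with no filter, -0.018 without mLN replicate 1, -0.062 without mLN replicate 2), Acads (-0.015, -0.02 without mLN replicate 1, -0.00047 without uLN replicate 1) and, without mLN replicate 3, Cpt2 (0.00033), Ehhadh (0.104) and Phyh (0.004). Pex6 was called with DESeq2's size factors (adjusted p = 0.0342), library totals (0.0252) and upper-quartile scaling (0.0373), and Acadm with no filter (0.0449) and without uLN replicate 2 (0.0414), all in edgeR. Ehhadh and Pex10, the scarcest of the 37 genes in CPM, had the largest standard errors, 0.224 and 0.198.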
